A study of Mus musculus with 2 samples.

Results

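Cholesterol synthesis was followed through 8 genes in α4β7-expressing lymphoid progenitors (αLPs). The 8 genes were Hmgcs1, Mvd, Idi1, Fdps, Fdft1, Sqle, Msmo1 and Insig1, taken by symbol from the 27998 gene rows of the count tables, and each was found in 1 row. αLPs of adult bone marrow were compared with αLPs of fetal liver, with 1 library per tissue. Both came from untreated wild-type B6 mice and were sorted as live CD45+ CD127+ α4β7+ cells negative for lineage markers, Flt3 and CD25. The fetal livers were taken at E14.5. The labels give an age of 6 to 8 weeks for both samples, which cannot hold for the fetal one. How many animals were pooled is not given in the sources used here. With 1 library per tissue there was no test between tissues, and every interval below covers counting error only.

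Cells make cholesterol from acetyl-CoA through the mevalonate pathway, which also yields the isoprenoids that anchor small GTPases in membranes. When sterols in the endoplasmic reticulum run low, SCAP carries the sterol regulatory element binding proteins (SREBPs) to the Golgi, where they are cleaved and then switch on the genes of the pathway. When sterols are plentiful, Insig proteins hold SCAP back, while oxysterols activate the liver X receptors (LXRs), which promote sterol efflux. Dividing lymphocytes are known to draw on this pathway for new membrane.

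The bone marrow library kept 7258 cells with 29941097 UMIs (distinct tagged RNA molecules) and the fetal liver library 8583 cells with 91285900 UMIs. The median cell held 3447.5 UMIs in bone marrow and 9294 UMIs in fetal liver. Levels are therefore given as counts per 1000000 UMIs of the library or cell group (CPM), a scale on which 3 counts come to 0.10 CPM in bone marrow and 0.033 CPM in fetal liver. The sort genes Ptprc (CD45), Il7r (CD127), Itga4 and Itgb7 were detected in both libraries, at 61.8 to 417 CPM in bone marrow and 47.9 to 178 CPM in fetal liver. Flt3 and Il2ra (CD25), sorted against, stood at 1.20 and 7.78 CPM in bone marrow and 1.45 and 1.08 CPM in fetal liver. Both libraries carry the same batch label. Other measures moved with the tissue. S phase list genes summed to 1452 CPM in bone marrow and 2776 CPM in fetal liver, and 12 immediate early genes to 15871 and 5462 CPM. Xist had 2 UMIs in bone marrow and 23018 UMIs in fetal liver. Summed Y-linked genes had 4427 UMIs (148 CPM) in bone marrow and 4325 UMIs (47.4 CPM) in fetal liver. The fetal liver library thus held both Xist and Y-linked transcripts, and the sex of the animals and the tissue cannot be told apart. The libraries shared 19 cell barcodes, and the ratio of the 8 genes between tissues did not move without them (-0.75).

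The promoters of 5 of the 8 genes were found in the RefSeq table of build GRCm38.p6. The 3 printed here belong to the enzyme with the smallest tissue difference (Hmgcs1), the enzyme with the largest (Mvd) and the gene that went the other way (Insig1). Each runs 5′ to 3′ up to the RefSeq start or, for Insig1, to the earlier GENCODE start. Capitals mark matches on either strand to the NF-Y box CCAAT, the GC box GGGCGG and the sterol regulatory element core TCACNCCAC, motifs of factors known to act on SREBP target genes.
Hmgcs1 (chr13:119690101-119690350, plus strand): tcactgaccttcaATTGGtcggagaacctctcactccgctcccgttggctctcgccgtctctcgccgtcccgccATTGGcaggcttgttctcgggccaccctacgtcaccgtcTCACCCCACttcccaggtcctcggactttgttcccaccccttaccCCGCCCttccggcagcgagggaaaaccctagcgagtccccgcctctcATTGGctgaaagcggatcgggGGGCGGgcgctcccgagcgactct
Mvd (chr8:122443423-122443672, minus strand): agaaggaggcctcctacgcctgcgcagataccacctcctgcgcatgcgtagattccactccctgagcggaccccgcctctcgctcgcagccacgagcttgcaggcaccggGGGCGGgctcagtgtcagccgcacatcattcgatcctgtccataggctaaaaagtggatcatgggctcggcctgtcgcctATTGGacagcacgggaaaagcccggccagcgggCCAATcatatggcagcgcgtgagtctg
Insig1 (chr5:28071162-28071362, plus strand): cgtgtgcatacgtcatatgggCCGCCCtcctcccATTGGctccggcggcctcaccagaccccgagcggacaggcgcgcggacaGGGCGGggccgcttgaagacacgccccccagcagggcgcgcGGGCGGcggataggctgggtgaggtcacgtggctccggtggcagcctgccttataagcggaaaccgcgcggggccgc
In the 250 bases before the RefSeq start, CCAAT and GGGCGG were both present in all 5 promoters, Idi1 and Msmo1 included. For Idi1 and Msmo1 the GENCODE start is also earlier, and all their matches lay inside the GENCODE gene bounds. Over 32851 promoter windows of the same length, CCAAT was present in 33.8% and GGGCGG in 32.7%. TCACNCCAC was found in Hmgcs1 alone among the 5, and in 1.05% of all windows.

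The 7 enzyme genes were all lower in adult bone marrow than in fetal liver, whereas Insig1 was higher. Summed over the 8 genes, the level was 119 CPM in bone marrow (114.9 to 122.8, exact 95% Poisson interval, 3557 UMIs) and 199 CPM in fetal liver (196.5 to 202.3, 18197 UMIs). The log2 ratio of bone marrow over fetal liver was -0.75, with an exact conditional interval of -0.80 to -0.69. Of the 8 genes, 6 were at least 1.5-fold lower in bone marrow and 0 were higher by that factor. Of 6938 genes that reached 10 CPM in one or both libraries, 19.2% were lower by that factor and 23.2% higher, and the median log2 ratio was -0.01. By that minimum 7 of the 8 genes passed, and Sqle, at 9.99 CPM in fetal liver, fell just short.

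**Figure D1:**
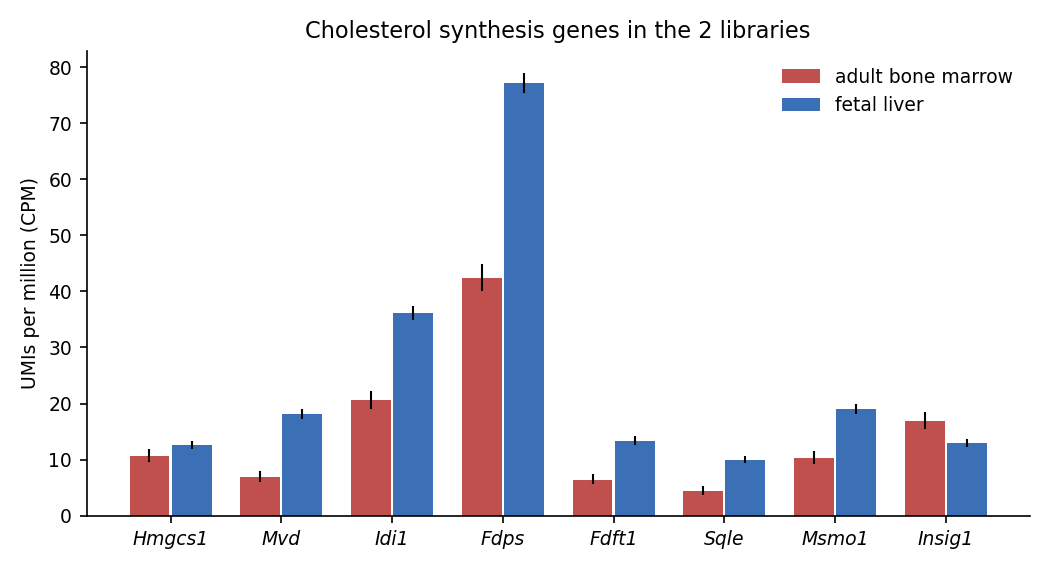
Level of each gene in CPM in the adult bone marrow library and the fetal liver library. Bars are the summed counts of 1 library each and error bars are exact 95% Poisson intervals, which cover counting error only. The bone marrow bar is the shorter for the 7 enzymes, and Insig1 stands at 16.9 CPM in bone marrow and 12.99 CPM in fetal liver.

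Coordinates are gene bounds in GENCODE M21 on mm10. In the upper part of the pathway, the order of the differences did not follow the order of the steps. Hmgcs1 (chr13:119690379-119708260) makes HMG-CoA, the precursor of mevalonate. It stood at 10.7 CPM in bone marrow and 12.6 CPM in fetal liver, a log2 ratio of -0.23 (-0.42 to -0.05), the smallest difference among the enzymes. Among cycling cells alone its log2 ratio was 0.076, with an interval of -0.32 to 0.45 that included 0, from 65 UMIs in bone marrow. Mvd (chr8:122433601-122443422) makes isopentenyl diphosphate, the building block of all isoprenoids. It stood at 6.98 CPM in bone marrow and 18.1 CPM in fetal liver, a log2 ratio of -1.38 (-1.59 to -1.17), the largest difference of the 8. Idi1 (chr13:8885501-8892451) interconverts the isoprenoid building blocks and Fdps (chr3:89093588-89101959) joins them into farnesyl diphosphate. Idi1 stood at 20.6 CPM in bone marrow and 36.1 CPM in fetal liver, a log2 ratio of -0.81. Fdps stood at 42.4 CPM in bone marrow and 77.1 CPM in fetal liver, a log2 ratio of -0.86.

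Enzymes committed to sterols were lower in bone marrow too. Fdft1 (chr14:63145150-63179578) encodes squalene synthase, which takes farnesyl diphosphate into the sterol branch. It stood at 6.45 CPM in bone marrow and 13.4 CPM in fetal liver, a log2 ratio of -1.05 (-1.28 to -0.83). Sqle (chr15:59315077-59331192) encodes squalene epoxidase, a rate-limiting enzyme of the sterol branch. It stood at 4.48 CPM in bone marrow and 9.99 CPM in fetal liver, a log2 ratio of -1.16 (-1.43 to -0.90). Msmo1 (chr8:64718139-64733792), a methylsterol oxidase of the demethylation steps, stood at 10.3 CPM in bone marrow and 19.0 CPM in fetal liver, a log2 ratio of -0.89. Fdft1 overlaps Ctsb on the opposite strand, and whether strand was used in counting is not given in the sources used here. Ctsb stood at 45.8 CPM in bone marrow and 51.7 CPM in fetal liver, so its part in the Fdft1 counts is uncertain.

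Insig1 (chr5:28071363-28078662), the gene of the protein that retains SCAP and is itself an SREBP target, stood at 16.9 CPM in bone marrow (15.5 to 18.4) and 12.99 CPM in fetal liver (12.3 to 13.7). Its log2 ratio was 0.38 (0.23 to 0.53). The size of this difference depended on which cells were summed. It was 0.10 with each cell weighing the same and 0.062 with cells thinned to 2000 UMIs, against 0.82 among cycling cells.

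Most cells carried few UMIs of these genes. At least 1 UMI of any of the 8 was seen in 30.7% of bone marrow cells (29.6 to 31.8, exact 95% binomial interval) and in 71.7% of fetal liver cells (70.7 to 72.6), shares that the depth gap can set. With each cell thinned to 2000 UMIs, which left out 1335 bone marrow and 131 fetal liver cells, the shares were 18.5% in bone marrow and 29.2% in fetal liver. Nearly every cell type expresses these genes, so no background share was set beside them.

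The other genes of sterol handling were then read from 5 further lists. The rest of the synthesis enzymes stood in the same direction on balance. The list of sterol efflux genes and LXR targets stood mostly in the opposite one, and SREBP pathway control genes were mixed. Of 14 other cholesterol synthesis enzymes 8 reached 10 CPM, of which 4 were at least 1.5-fold lower in bone marrow and 0 higher, with a median log2 ratio of -0.55. Over all genes 19.2% were lower by that factor and 23.2% higher. Pmvk, the phosphomevalonate kinase just before Mvd, stood at 12.8 CPM in bone marrow and 37.3 CPM in fetal liver, a log2 ratio of -1.54. Acat2, at the entry of the pathway, had a log2 ratio of -0.98 and the demethylase gene Cyp51 of -0.85. Scaling by trimmed means (TMM) lowered every log2 ratio by 0.135.

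Of 10 genes of SREBP control and sterol uptake 5 reached 10 CPM, of which 2 were higher in bone marrow by a factor of 1.5 or more and 0 lower, with a median log2 ratio of 0.48. Over all genes 23.2% were higher by that factor, and a count of 2 of 5 is too small to read against it. Srebf2, the gene of the SREBP that mainly drives cholesterol synthesis, stood at 28.5 CPM in bone marrow and 14.7 CPM in fetal liver, a log2 ratio of 0.96 (0.83 to 1.08). Lpin1, a phosphatidate phosphatase gene, had a log2 ratio of 1.70 and Mbtps1, whose protease cleaves SREBPs in the Golgi, of 0.48. Insig2, the relative of Insig1, stood at 11.5 CPM in bone marrow and 10.9 CPM in fetal liver, a log2 ratio of 0.080 (-0.10 to 0.26). Stard4, which encodes a sterol transfer protein, was lower in bone marrow, at 10.6 CPM against 14.53 CPM in fetal liver, a log2 ratio of -0.46 (-0.64 to -0.28).

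The list of sterol efflux genes and LXR targets stood opposite to the enzymes on balance. It also held the LXR genes Nr1h2 and Nr1h3, and Soat1, which encodes a cholesterol-esterifying enzyme. Of 7 genes 6 reached 10 CPM, with a median log2 ratio of 0.99. Of these 6, 4 were higher in bone marrow by a factor of 1.5 or more and 1 lower. The 4 higher genes were Abca1, Abcg1, Mylip and Soat1. Soat1 stood at 21.6 CPM in bone marrow and 13.3 CPM in fetal liver, a log2 ratio of 0.71. Over all genes 23.2% were higher by that factor and 19.2% lower, and a list of 6 genes is small. The 1 lower gene was Lpcat3, at 22.5 CPM in bone marrow and 37.8 CPM in fetal liver, a log2 ratio of -0.75 (-0.87 to -0.63). The cholesterol exporter genes Abca1 and Abcg1 had log2 ratios of 1.27 and 1.34. Abcg1 stood at 30.1 CPM in bone marrow and 11.9 CPM in fetal liver. Mylip, an LXR target that encodes a ubiquitin ligase, stood at 17.5 CPM in bone marrow and 6.56 CPM in fetal liver, a log2 ratio of 1.41.

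Fatty acid synthesis genes showed no common direction. Of 12 genes 6 reached 10 CPM, with 1 higher in bone marrow by that factor, 1 lower and a median log2 ratio of 0.02. The shares over all genes were 23.2% higher and 19.2% lower. The elongase genes Elovl1 and Elovl5 had log2 ratios of -1.39 and 1.27, and Acly, which makes cytosolic acetyl-CoA, of 0.34. Of 10 isoprenoid branch genes 6 reached 10 CPM, with 2 at least 1.5-fold lower, 0 higher and a median of -0.43. A count of 2 of 6 is too small to read against the 19.2% of all genes that were lower. Pdss1, which builds the ubiquinone side chain, had a log2 ratio of -1.49, and the prenyltransferase subunit genes Rabggtb and Fnta of -0.65 and -0.57.

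Cycling state was read from 41 S phase genes and 40 G2 and M phase genes, none of them among the 8. A cell was called cycling when these took at least 0.5% of its UMIs, low-cycling when they took at most 0.1%, and intermediate between. Of bone marrow cells 8.45% were cycling and 52.5% low-cycling, and of fetal liver cells 44.4% were cycling and 10.3% low-cycling. The median cycling cell held 7764 UMIs in bone marrow and 12205 UMIs in fetal liver, against 2946 and 5333 UMIs in low-cycling cells.

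In bone marrow the sum of the 8 genes was higher in cycling cells, and 5 of the 8 had an interval above 0. The sum was 174 CPM in cycling cells and 92.2 CPM in low-cycling cells, a log2 ratio of 0.91 (0.78 to 1.04), with intermediate cells at 123 CPM. Of the 8 genes 4 were at least 1.5-fold higher in cycling cells and 0 lower, where 20% of 7060 genes were higher by that factor and 21.1% lower. Those 7060 genes reached 10 CPM in cycling or low-cycling cells. So did 5 of the 8, of which 3 were higher by that factor. Idi1 stood at 38.2 CPM in cycling and 13.8 CPM in low-cycling cells, a log2 ratio of 1.47 (1.16 to 1.77). Fdps stood at 69.7 CPM in cycling and 30.8 CPM in low-cycling cells, a log2 ratio of 1.18. Insig1 had a log2 ratio of 0.72 and Sqle of 0.82. Over the alternatives Idi1 ranged from 1.05 to 1.52 and Fdps from 0.90 to 1.29. The Sqle value rested on 28 and 39 UMIs and turned to -0.52 with cells from 1% called cycling and cells to 0.2% low-cycling. For Hmgcs1 and Fdft1 the interval included 0. Mvd did not share this direction, at 5.90 CPM in cycling and 7.18 CPM in low-cycling cells, with an interval of -0.93 to 0.33 around -0.28.

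In fetal liver the difference was seen in fewer of the 8 genes and depended on the cut. Their sum was 202 CPM in cycling cells and 155 CPM in low-cycling cells, a log2 ratio of 0.38 (0.28 to 0.49), and intermediate cells also stood at 202 CPM. The ratio was 0.17 with cells thinned to 2000 UMIs, 0.086 with cells from 1% against cells to 0.2%, and 0.020 by the G2 and M list alone, against 0.52 by the S list alone. Idi1 stood at 39.0 CPM in cycling and 20.96 CPM in low-cycling cells, a log2 ratio of 0.90, and Fdps at 81.0 and 46.8 CPM, a log2 ratio of 0.79. These were the 2 of 8 genes at least 1.5-fold higher, against 15.9% of 6812 genes. Mvd was lower in cycling cells, at 16.6 CPM against 23.0 CPM in low-cycling cells, a log2 ratio of -0.47 (-0.75 to -0.19). For Hmgcs1, Fdft1, Sqle, Msmo1 and Insig1 the interval included 0. The Idi1 ratio ranged from 0.23 to 1.06 over the 5 alternative cuts and scalings, and the Fdps ratio from 0.20 to 0.88.

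**Figure D2:**
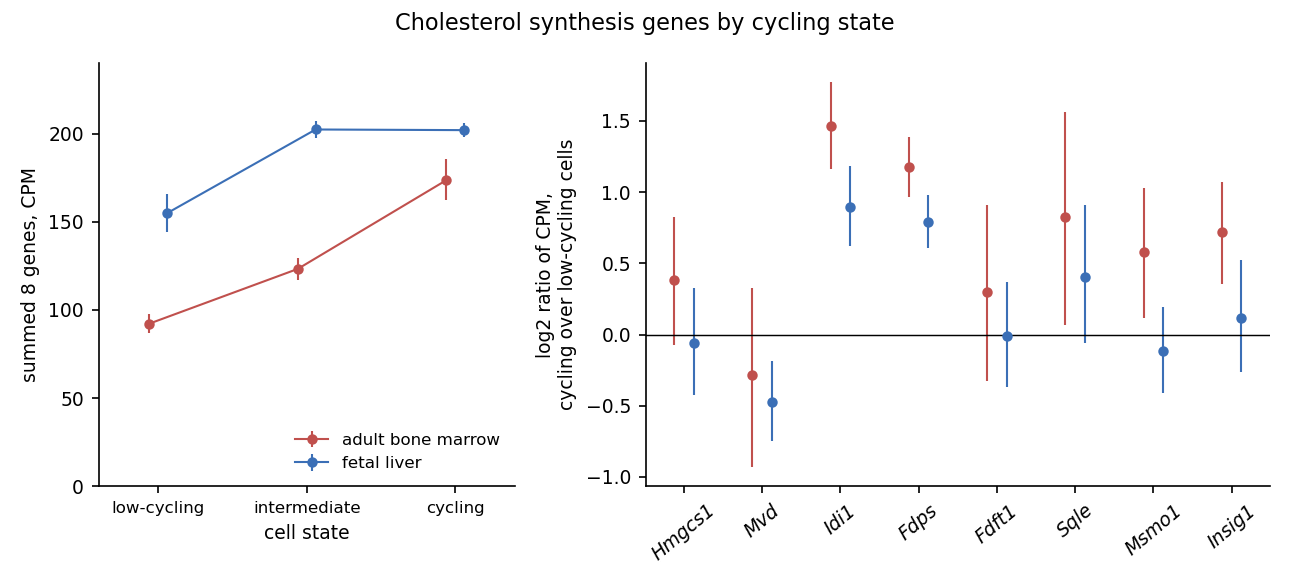
Left, summed CPM of the 8 genes in low-cycling, intermediate and cycling cells of adult bone marrow and fetal liver. Right, log2 ratio of CPM in cycling over low-cycling cells for each gene. Points are sums over the cells of 1 library, bars are exact 95% intervals for counting error. Idi1 and Fdps lie above 0 in both libraries and Mvd lies below 0 in fetal liver.

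Ranking cells thinned to 2000 UMIs into 5 equal groups by their share of cycle UMIs gave the same contrast between the tissues. In bone marrow the 8 genes summed to 104, 91.1, 97.5, 108 and 154 CPM, lowest share first, so that the highest group stood apart. In fetal liver they summed to 178, 188, 194, 202 and 176 CPM, with no group apart from the others.

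Within cycling cells, Idi1 and Fdps were higher where S phase genes led than where G2 and M phase genes led. Idi1 stood at 48.6 CPM in S-led and 26.4 CPM in G2 and M-led cells of bone marrow, a log2 ratio of 0.88 (0.44 to 1.34). In fetal liver Idi1 stood at 47.3 CPM in S-led and 31.0 CPM in G2 and M-led cells, a log2 ratio of 0.61 (0.48 to 0.74). Fdps had log2 ratios of 0.51 in bone marrow and 0.36 in fetal liver, and Fdft1 had one of 0.27 in fetal liver. For Mvd, Sqle, Msmo1, Hmgcs1 and Insig1 the interval included 0 in both libraries.

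Compared state by state, the gap between the tissues was narrowest in cycling cells. The sum of the 8 genes gave a log2 ratio of bone marrow over fetal liver of -0.22 (-0.32 to -0.12) in cycling, -0.71 in intermediate and -0.75 in low-cycling cells. Of the 8 genes, 3 were at least 1.5-fold lower in bone marrow among cycling cells, where 11.4% of 6719 genes were, and 6 among low-cycling cells, where 18.7% of 6998 genes were. These shares are over genes that reached 10 CPM in the state. All 8 did so in cycling cells and 7 in low-cycling cells, of which 5 were lower by that factor. Idi1 was close to level in cycling cells, at 38.2 CPM in bone marrow and 39.0 CPM in fetal liver, an interval of -0.25 to 0.18. Mvd kept its gap in every state, with log2 ratios of -1.49 in cycling, -1.44 in intermediate and -1.68 in low-cycling cells. Insig1 was the 1 gene at least 1.5-fold higher in cycling cells of bone marrow, at 21.6 CPM against 12.3 CPM in cycling cells of fetal liver, where 17.7% of genes were higher by that factor.

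Cells were then gated by lineage markers. A cell entered a gate with at least 1 UMI in 2 or more of its markers, or in 3 or more for the B lineage and the myeloid, erythroid or mast gates. A Zbtb16 UMI without any other gate gave the PLZF gate, named for a factor of common innate lymphoid cell (ILC) progenitors. The other gates were for lymphoid tissue inducer cells (LTi) or ILC3, for natural killer cells (NK) or ILC1 (by Ncr1, Klrb1c, Klrd1, Klre1, Eomes, Tbx21 and Nkg7), for ILC2 and for early lymphoid cells. A gate is a range of marker counts and not a cell type, and deeper cells pass more easily. Marker levels also differed between the tissues, so gates of the same name need not hold like cells. Of the ILC2 gate markers, Areg stood at 160 CPM in bone marrow and 11.0 CPM in fetal liver, and Il13 at 3.94 and 19.2 CPM. Dntt, of the early lymphoid gate, had 1919 UMIs in bone marrow and 1 UMI in fetal liver. In bone marrow 819 of 1171 ILC2 gate cells and 334 of 417 early lymphoid gate cells sat at the marker minimum, in fetal liver 349 of 566 and 94 of 109. Cells that passed several gates, 85 in bone marrow and 876 in fetal liver, were kept apart.

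The early lymphoid gate, by Dntt, Ly6d, Rag1, Rag2, Flt3 and Cd34, had the highest level of the 8 genes among the gates of each library when cells of all cycling states were summed. In bone marrow its sum was 178 CPM (163.9 to 194.0) against 112 CPM in all other cells, a log2 ratio of 0.67 (0.54 to 0.80). In fetal liver it was 272 CPM (246.4 to 300.2, overlapping the B lineage gate) against 198 CPM in all other cells, a log2 ratio of 0.46 (0.31 to 0.60). Cycling cells made up 34.8% of this gate in bone marrow, against 8.45% of the library, and 50.5% in fetal liver, against 44.4%. Among low-cycling cells of bone marrow it was not the highest, at 126 CPM (91.3 to 170.0) against 129 CPM (108.0 to 152.7) in the NK or ILC1 gate, and their log2 ratios against other cells were 0.47 and 0.54. Insig1 stood at 32.7 CPM in this gate of bone marrow and 14.2 CPM in that of fetal liver, a log2 ratio of 1.21 (0.52 to 1.96) from 101 and 21 UMIs.

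The lowest gate differed between the libraries. In bone marrow it was the ILC2 gate, by Il1rl1, Il17rb, Il13, Il5, Il4, Il9r, Areg and Calca, at 90.2 CPM (81.0 to 100.1). Its cycling cells stood at 150.2 CPM and its low-cycling cells at 63.0 CPM (52.3 to 75.3). In fetal liver the lowest was the LTi or ILC3 gate, with markers such as Il23r, Il22, Ccr6 and Cxcr5, at 151 CPM (143.9 to 159.1), with 171 CPM in its cycling and 112 CPM in its low-cycling cells. The fetal liver NK or ILC1 gate ran the other way, at 180 CPM (173.0 to 187.7) in cycling and 200.3 CPM (167.0 to 238.4) in low-cycling cells, with overlapping intervals. Cycling cells were 8.03% of the bone marrow ILC2 gate and 25.7% of the fetal liver LTi or ILC3 gate.

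Between the extremes the fetal liver gates lay close together. The myeloid, erythroid or mast gate stood at 201 CPM, the ILC2 gate at 218 CPM, the PLZF gate at 218 CPM and the B lineage gate at 228 CPM, with overlapping intervals. The NK or ILC1 gate stood at 195 CPM (188.9 to 201.1), whose interval overlaps that of the myeloid, erythroid or mast gate. In bone marrow the PLZF gate stood at 109.7 CPM and the NK or ILC1 gate at 124 CPM, with overlapping intervals. The LTi or ILC3 gate held 84 bone marrow cells with 36 UMIs of the 8 genes, at 101 CPM (70.9 to 140.1), too few to place it. The B lineage gate held 0 of 7258 bone marrow cells, where the limit of 3 counts allows a share of up to 0.0413%, and the myeloid, erythroid or mast gate held 4.

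**Figure D3:**
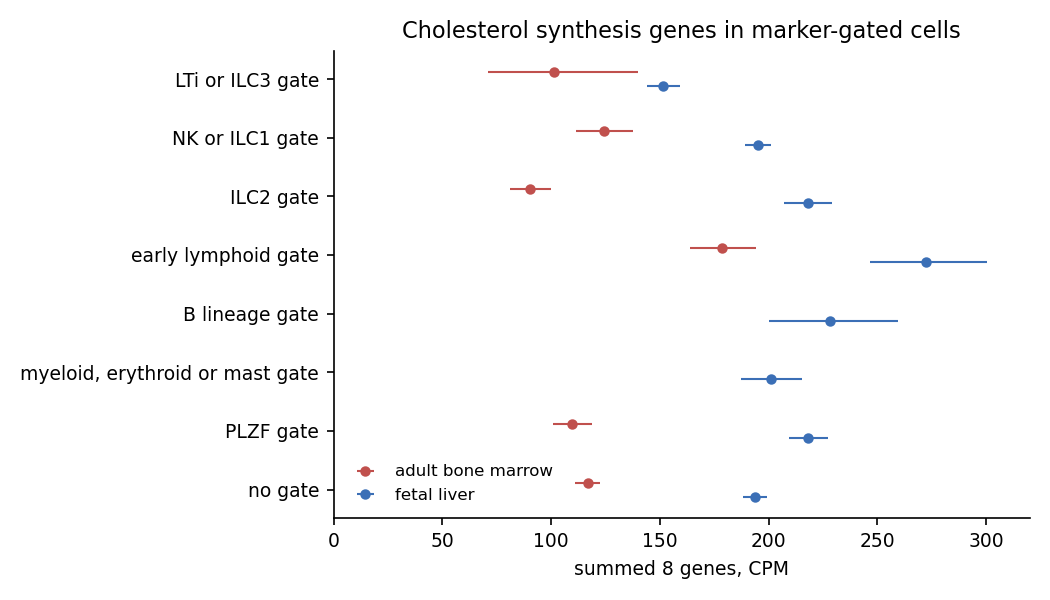
Summed CPM of the 8 genes in marker-gated cells of adult bone marrow and fetal liver. Points are sums over the gated cells of 1 library and bars are exact 95% Poisson intervals for counting error. A gate with under 50 cells in a library has no point. Bone marrow lies left of fetal liver in each gate drawn for both, and the ILC2 gate stands at 90.2 CPM in bone marrow and 218 CPM in fetal liver.

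Gate by gate, with all cycling states summed, the 8 genes were lower in bone marrow in sum each time, and the gap was widest in the ILC2 gate. There the log2 ratio of bone marrow over fetal liver was -1.27 (-1.44 to -1.10), against -0.99 in the PLZF gate, -0.65 in the NK or ILC1 gate, -0.61 in the early lymphoid gate and -0.58 in the LTi or ILC3 gate. In the ILC2 gate 6 of 8 genes were at least 2-fold lower, where 11.8% of 6909 genes were. Sqle stood at 2.06 CPM in the bone marrow gate, from 8 UMIs, and 12.6 CPM in the fetal liver gate. Idi1 stood at 13.4 CPM in bone marrow and 41.5 CPM in fetal liver, and Fdps at 30.4 CPM and 83.9 CPM. Cycling cells were 8.03% of this gate in bone marrow and 57.6% in fetal liver. Among cycling cells of the ILC2 gate the sum was 150.2 CPM in bone marrow and 216 CPM in fetal liver, a smaller log2 ratio of -0.52 (-0.83 to -0.23). Among cycling cells of the early lymphoid gate it was 190 CPM in bone marrow and 310.5 CPM in fetal liver, a log2 ratio of -0.71 (-0.95 to -0.46), so the order of the gates changed there. Among low-cycling cells the log2 ratio was -0.89 in the PLZF gate, -0.64 in the NK or ILC1 gate and -0.0077 (-0.71 to 0.63) in the LTi or ILC3 gate, the last from 23 UMIs in bone marrow. In the PLZF gate 6 of 8 genes were at least 1.5-fold lower, where 21.9% of 6965 genes were, and in the NK or ILC1 gate also 6 of 8, where 19% of 6689 genes were. In the early lymphoid gate 5 of 8 were, against 16.2% of 6883 genes. These shares are over genes that reached 10 CPM in the gate. In the NK or ILC1 gate 7 of the 8 did so, of which 5 were lower by that factor. Cells in no gate, 3796 in bone marrow and 2648 in fetal liver, gave a log2 ratio of -0.73, and without B lineage, myeloid and several-gate cells that of the libraries was -0.72.

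Whether the 8 genes varied together from cell to cell was read in cells thinned to 2000 UMIs, ranked by the other 7 genes for each gene in turn. The highest 25% of cells was set against the lowest 25%, with 1480 cells each in bone marrow and 2113 each in fetal liver. In bone marrow all 8 genes had more UMIs in the highest cells, and 3 had an interval above 0. Idi1 had 78 UMIs in the highest and 36 in the lowest cells, a log2 ratio of 1.12 (0.53 to 1.73). In fetal liver 7 of 8 had more UMIs in the highest cells, and 5 had an interval above 0. Hmgcs1 had 70 UMIs in the highest and 31 in the lowest, a log2 ratio of 1.18 (0.55 to 1.83), while Mvd had 87 and 88.

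Synthesis enzymes outside the 8 were also read in cells ranked by all 8. Of the 8 enzymes of that list that reached 10 CPM in the highest or lowest cells of bone marrow, 2 were at least 1.5-fold higher in the highest cells, against 2.51% of 6804 genes. Pmvk was one of them, with 45 UMIs in the highest and 25 in the lowest cells, a log2 ratio of 0.85 (0.11 to 1.61). In fetal liver 2 of 10 were, against 1.57% of 6414 genes. Dhcr7, which encodes a reductase of the last steps, was one of these, with 53 UMIs in the highest and 26 in the lowest cells. The highest and lowest cells of bone marrow also differed in cycling, with cycle genes at 0.229% of UMIs in the highest and 0.185% in the lowest, and the part of cycling was not tested. In fetal liver these shares were 0.508% and 0.513%. Because most thinned cells held none of these UMIs, the highest 25% of bone marrow cells included cells with 0.

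Over 27 groups of cells of 1 gate and 1 cycling state, 11 in bone marrow and 16 in fetal liver, other genes followed the summed level more closely than did the sterol enzymes Lbr and Ebp. The measure was Pearson's r of log2(CPM + 5), centred within each library, over 3718 genes with at least 20 CPM in both libraries, and groups of a library share its preparation and depth. The 5 genes most like the sum were Abracl (r = 0.92), Polr3k (0.91), Snrpa (0.90), Cdk2ap1 (0.90) and Rbmxl1 (0.89). Polr3k encodes an RNA polymerase subunit and Snrpa a small nuclear ribonucleoprotein of splicing. Lbr, a sterol reductase of the nuclear envelope, had an r of 0.57 and Ebp, a sterol isomerase, of 0.46, and the median over all genes was 0.051.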

How the data were processed

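αLPs of adult bone marrow and fetal liver were sequenced as single cells in droplets, 1 library each. The authors deposited unnormalized counts of UMIs by gene and barcode, with barcodes not associated with cells already filtered out, per the labels' protocols. The matrix software was of version 3.0.1, per the file headers. The submitters' processing notes name mm10 and Seurat 4.0 without a role. The aligner and annotation: not given in the sources used here.

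Barcodes with under 500 genes or over 10% mitochondrially encoded UMIs were removed, 109 in bone marrow and 363 in fetal liver. Doublets were not called. Cells passing several gates were kept apart, and the 5% of cells with the most UMIs were left out as an alternative. Counts were summed and divided by total UMIs. Ratios have exact conditional 95% intervals, which cover counting error only. These intervals were checked on simulated Poisson counts, the model they rest on. The check therefore could not show how they hold under spread between cells. Python 3.11.15, scipy 1.17.1 and edgeR 4.0.16 (scaling factors alone) were used.

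The genes, lists, gates and cuts were chosen with earlier results of these data known. Named genes were the 8 genes, the 3 largest log2 ratios of each further list with at least 10 CPM, Srebf2, Insig2 and the 5 most alike over cell groups. Ebp, Lbr, Ctsb, Stard4, Lpcat3, Soat1, Nr1h2, Nr1h3 and Dhcr7 were named after their values were seen. Some genes of the lists and markers of the gates entered the counts but are not reported here by name. Coordinates and overlaps came from GENCODE M21 of the same build. No annotated transcript of another gene matched the last 300 bases of any of the 8 over 90 or more bases at 95% identity.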

Additional observations from a re-analysis of the deposited data

Results flagged for a closer look

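The ILC2 gate went opposite ways in the libraries. Against all other cells, its log2 ratio of the 8 summed genes was -0.45 in bone marrow (-0.61 to -0.29) and 0.14 in fetal liver (0.064 to 0.21). The PLZF gate did so too, at -0.14 in bone marrow (-0.27 to -0.010) and 0.15 in fetal liver (0.084 to 0.21). Neither difference between the libraries was tested, since each library is 1 sample. Among low-cycling cells alone the PLZF gate of bone marrow stood at 0.094.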

How the results depend on the processing

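No paired analysis was possible because each tissue had 1 library. The log2 ratio of bone marrow over fetal liver of the summed genes, -0.75, stayed negative under all 13 alternatives. It was -0.88 with TMM and -0.91 with median-ratio scaling, -0.83 with each cell weighing the same, -0.65 with cells of at least 1000 genes, -0.81 without the 5% of cells with the most UMIs and -0.22 in cycling cells. The count of 6 genes at least 1.5-fold lower was 3 in cycling cells and stayed within 1.5 times elsewhere. Of single genes, Hmgcs1 stood at 0.076 in cycling cells, with an interval that included 0, and the other 7 kept their sign under the 13 alternatives. Leaving out B lineage, myeloid and several-gate cells, or the shared barcodes, and reading gates within 1 cycling state were alternatives chosen after seeing the data.

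The cycling ratio of bone marrow, 0.91, was 0.76 with cells from 1% against cells to 0.2%, where Sqle turned to -0.52. It was 0.70 in thinned cells and 0.74 by the G2 and M list. The ratio of fetal liver, 0.38, was 0.086, 0.17 and 0.020 under these 3 settings and 0.52 by the S list.

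Gate ratios against other cells of the library moved as follows. With at least 3 markers the bone marrow ILC2 gate stood at -0.71 and the fetal liver LTi or ILC3 gate at -0.54. In thinned cells the bone marrow NK or ILC1, early lymphoid and PLZF gates stood at 0.24, 0.51 and -0.32, and the fetal liver LTi or ILC3, NK or ILC1, ILC2 and PLZF gates at -0.61, 0.079, 0.026 and 0.22. In low-cycling cells the bone marrow LTi or ILC3, NK or ILC1, ILC2, early lymphoid and PLZF gates stood at 0.27, 0.54, -0.63, 0.47 and 0.094, and the fetal liver LTi or ILC3, NK or ILC1 and PLZF gates at -0.61, 0.43 and 0.26. Gates with under 50 cells under an alternative gave no value. The cause of these shifts was not tested.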
